A study of Oryza sativa Japonica Group with 10 samples.

Results

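The class III peroxidases of rice roots were read from 130 rows of a table of 33486 genes and transcribed regions. These rows have peroxidase precursor in their description and neither ascorbate, glutathione nor thioredoxin, which set 18 other rows with the word peroxidase aside. All 130 had at least 1 count in the 10 libraries, 90 had enough counts to be tested and 40 did not. The descriptions give no further name or role for any single member, so members are called here by their locus identifiers, in which the digits after Os are the chromosome and the last 5 digits number the loci along it. No sequences are shown, since the reference tables used here do not hold these identifiers.

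The roots came from seedlings of rice (Oryza sativa Japonica Group) of the cultivar Nipponbare, line GSOR-100, without a transgene or a chemical treatment in the labels. All plants germinated in the dark, grew in a solid substrate under light and dark cycles, and were moved at an age of 12 days into Hoagland nutrient solution with the whole plant in the light. Root tips (meristem and elongation zone) and the rest of the root system, called mature root, were separated with a scalpel 2 or 6 days after that transfer. Each library came from a pool of 6 plants, and the groups were root tip on day 2 and on day 6 with 3 libraries each and mature root on day 2 and on day 6 with 2 libraries each. Plant age, days in nutrient solution and sampling occasion cannot be told apart in this design.

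Class III peroxidases are secreted plant enzymes that carry heme and use hydrogen peroxide. In the cell wall they oxidise phenolic compounds, which couples monolignols into lignin and cross-links wall polymers, and they can also release reactive oxygen species that loosen the wall. In roots they are known from the elongation zone, where wall stiffening limits cell growth, and from the Casparian strip, xylem and other lignified or suberised cells of older root. Grasses carry a very large family of these genes, many of them in tandem arrays.

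Tip libraries held 986907 to 2560074 counts and mature root libraries 2161392 to 3286439. Expression is given as CPM, counts per 1000000 counts of the library after TMM scaling (a correction for library composition), and 3 counts stood for 0.809 to 2.69 CPM per library. Replicates of a group differed far beyond counting error (chi-square per degree of freedom 14.7 to 30.3 over rows with enough counts in the pair compared). The typical biological coefficient of variation was 0.589. Tissue labels were checked with marker lists taken from the descriptions. Fatty acyl reductase and glycerol-3-phosphate acyltransferase genes, some of which serve suberin barriers of older root, summed to 7.18 to 26.9 CPM in tip, against 221 to 531.5 CPM in mature root. Of the 12 such genes, 2 were at 0 in every tip library and none was at 0 in all mature root libraries. Root cap genes, 8 in all, summed to 26.4 to 413 CPM in tip, against 6.67 to 95.5 CPM in mature root, which overlapped, and 1 of 7 tested was higher in tip. Core histone, replication and mitotic cyclin genes, 67 in all with 3 at 0 throughout tip and 3 throughout mature root, summed to 9595 to 16339 CPM in tip, against 8726 to 14285 CPM in mature root, with 1 of 56 tested lower in tip and none higher. Their tip sums of day 6, 15343 to 16339 CPM, lay above every mature root library, and those of day 2, 9595 to 14198 CPM, overlapped with mature root. Of the 59 genes of photosystems and light-harvesting proteins, 27 of 28 tested were lower in tip, and they summed to 88.5 to 238 CPM in tip, against 2705 to 7288 CPM in mature root.

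The 130 members together took about 1% of all counts in both tissues. Their share was 0.995% ± 0.212 (SD, n = 3) in tip on day 2 and 1.13% ± 0.106 (SD, n = 3) in tip on day 6. In mature root the share was 0.759% ± 0.0636 (SD, n = 2) on day 2 and 1.23% ± 0.219 (SD, n = 2) on day 6. Both mature root libraries of day 6, at 1.08% and 1.39%, lay above both of day 2, at 0.714% and 0.804%, while the tip shares of the days overlapped. No test was made of this sum, since it adds up a chosen list.

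**Figure D1:**
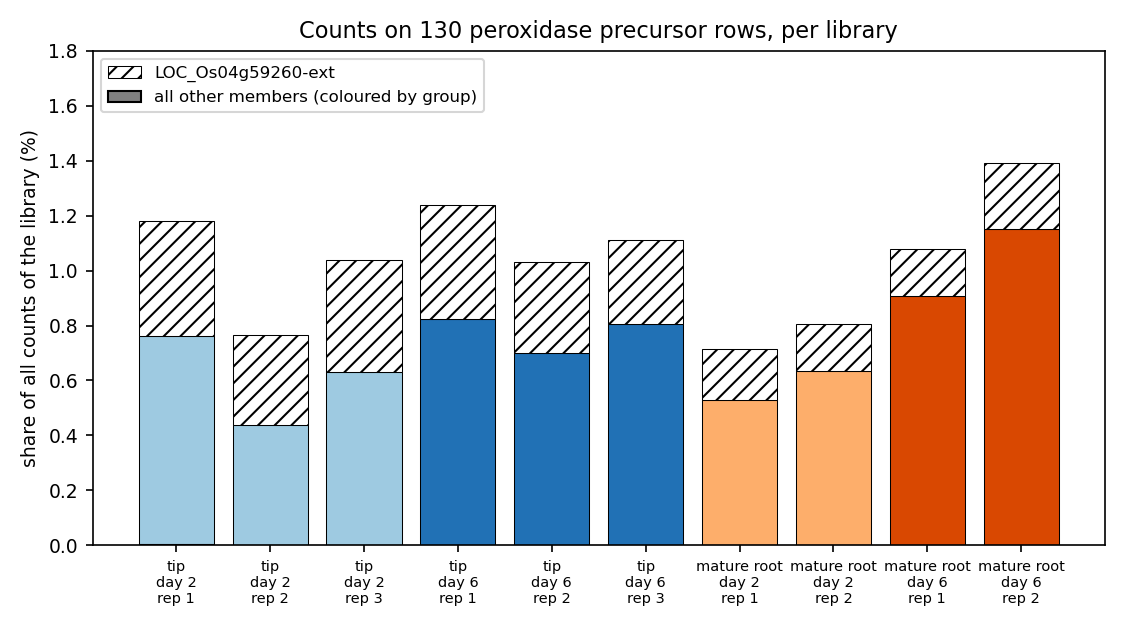
Share of all counts of a library, in percent, that fell on the 130 peroxidase precursor rows, 1 bar per library. The hatched top is LOC_Os04g59260-ext and the coloured base all other members: without the hatched part the mature root libraries of day 6 stand at 0.907% and 1.15%, above all others.

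The tip put more of its peroxidase counts on few members than mature root did. In each tip library 3 to 5 members were enough to hold the larger part of the member counts, against 7 to 9 members in each mature root library. A single member, LOC_Os04g59260-ext, took 27.5% to 42.5% of member counts in tip and 16.2% to 26.0% in mature root. That row has 14 exons and a summed exon length of 9155 bases, where the members' medians are 4 exons and 1471 bases. The labels and files do not explain the ending -ext, which 28 members have, and whether all exons of such a row belong to 1 peroxidase gene was not tested. Without it, the share of library counts was 0.694% ± 0.144 (SD, n = 6) in tip and 0.804% ± 0.28 (SD, n = 4) in mature root.

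Levels of different members can be compared per kilobase of exon, and on that scale the leading member changed with tissue and day. In tip on day 2 LOC_Os04g59260-ext led with a level of 423 CPM per kb, followed by LOC_Os03g36560 with 319.7 and LOC_Os04g34630 with 318. On day 6 LOC_Os01g19020-ext, at 459.9 CPM per kb, and LOC_Os01g15830, at 449, stood before it in tip, although its own level there was still 405 CPM per kb. Mature root was led on both days by LOC_Os08g02110, with 274.5 CPM per kb on day 2 and 579 on day 6. LOC_Os10g02070 had 215 CPM per kb there on day 2 and came next to it on day 6 with 514.5. The order was read from group means without a test, and differences between neighbours in it were not tested.

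Between tip and mature root, more members were lower in tip than higher. The test was edgeR's quasi-likelihood test over all 19234 tested rows, with Benjamini-Hochberg adjustment over those rows and calls at an adjusted p under 0.05. Averaged over both days, 6 of 90 members were higher in tip and 19 were lower, which is 27.8% called, against 12.2% of all tested rows. By direction, 6.67% of members were higher (3.18% of all rows) and 21.1% lower (9.02% of all rows). The median log2 fold change of tip over mature root was -0.41 over members and 0.05 over all rows. All 25 called members had the same sign on both days, which choosing them by the average of both days favours. In 4 members every tip library exceeded every mature root library (4.44%, against 3.87% of all rows), and in 11 every tip library was below (12.2%, against 7.34%). Fewer cells of a type and less RNA per cell cannot be told apart in such bulk samples, and the part of the barrier and green-tissue genes above in these differences was not tested. The counts leaned on mature root. With any 1 of its libraries left out, fewer members were called, and so was a smaller share of all rows.

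**Figure D2:**
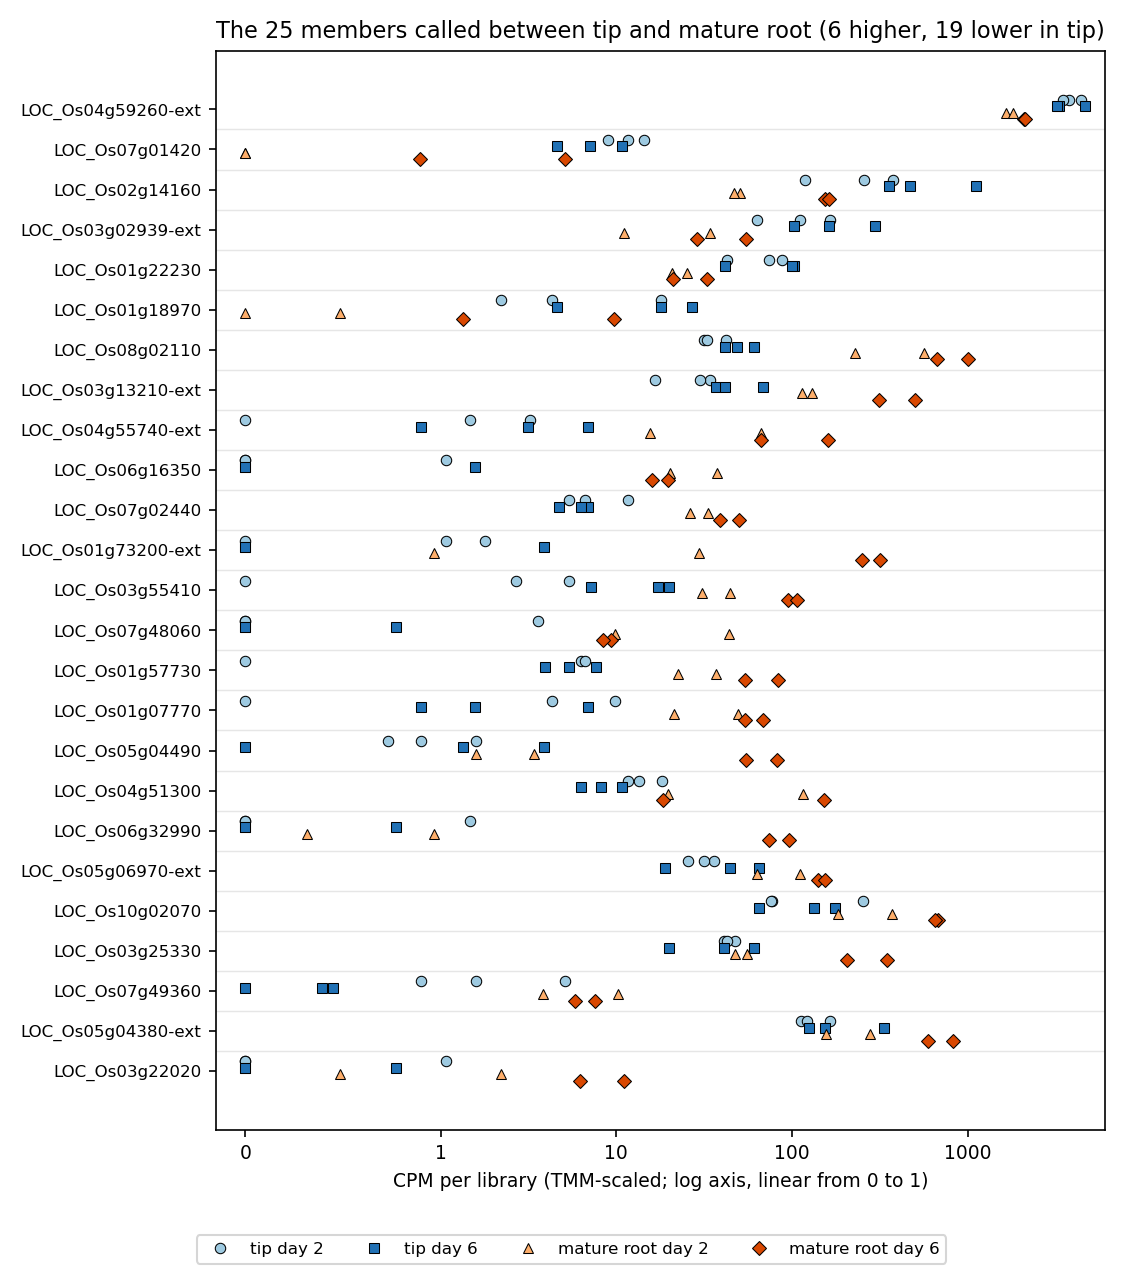
Expression in CPM of the 25 members called between tip and mature root, 1 point per library on an axis that is logarithmic above 1 and linear from 0 to 1. The upper 6 members were higher in tip and the lower 19 lower. In 3 of the upper 6 (LOC_Os04g59260-ext, LOC_Os03g02939-ext and LOC_Os01g22230) and 10 of the lower 19 the points of the tissues do not overlap.

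The 6 members that marked the tip were LOC_Os04g59260-ext, LOC_Os02g14160, LOC_Os03g02939-ext, LOC_Os01g22230, LOC_Os07g01420 and LOC_Os01g18970. LOC_Os04g59260-ext, the member with most counts, was at 3749, 3456 and 4402.5 CPM in the tip libraries of day 2 and at 4623, 3308 and 3196 CPM in those of day 6. Mature root libraries held 1636 and 1793 CPM of it on day 2 and 2076 and 2107 CPM on day 6. Every tip library lay above every mature root library, and replicates stood close together. Its mean was 3789 ± 595 CPM (SD, n = 6) in tip and 1903 ± 227 CPM (SD, n = 4) in mature root, 1.99-fold apart. The fitted log2 fold change was 1.00 ± 0.18 (SE), with edgeR adjusted p = 0.00442, and it stayed between 0.89 and 1.05 under the other settings tried. It was also called on day 2 alone (log2 fold change 1.17 ± 0.25 SE, edgeR adjusted p = 0.0472). On day 6 alone the log2 fold change was 0.83 ± 0.25 (SE) with edgeR adjusted p = 0.0657.

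LOC_Os02g14160 had the next-highest count among tip-marking members. It was at 257, 373 and 118 CPM in tip on day 2 and at 1112, 353 and 469.7 CPM on day 6. In mature root it was at 50.8 and 46.5 CPM on day 2 and at 154.5 and 163 CPM on day 6. The tissues overlapped only through the lowest tip library of day 2, and within each day all tip libraries were above all mature root ones. Its log2 fold change of tip over mature root was 2.19 ± 0.43 (SE), with edgeR adjusted p = 0.0072, and it was called under each setting tried.

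LOC_Os03g02939-ext and LOC_Os01g22230 also separated the tissues without overlap. LOC_Os03g02939-ext was at 164, 63.0 and 110.2 CPM in tip on day 2 and 162, 297 and 102 CPM on day 6, against 11.1 and 33.9 CPM in mature root on day 2 and 28.6 and 54.8 CPM on day 6. Every tip value of LOC_Os03g02939-ext was above 54.8 CPM, its highest mature root value. Its log2 fold change was 2.24 ± 0.51 (SE), with edgeR adjusted p = 0.0142, which became 0.0726 when day 2 replicate 1 of mature root was left out and 0.0926 when day 6 replicate 1 was. LOC_Os01g22230 was at 73.6, 88.0 and 42.8 CPM in tip on day 2 and 103, 99.7 and 41.3 CPM on day 6, against 20.6 and 25.2 CPM, then 21.0 and 32.9 CPM, in mature root. All its tip values were higher, by the narrow margin of 41.3 over 32.9 CPM. The log2 fold change of LOC_Os01g22230 was 1.58 ± 0.43 (SE) with edgeR adjusted p = 0.0326, and this call was lost (adjusted p 0.0511 to 0.157) without any 1 of 8 libraries, the 4 of mature root among them.

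The remaining tip-marking members had few counts. LOC_Os07g01420 was at 8.98, 11.7 and 14.4 CPM in tip on day 2 and 4.62, 7.04 and 10.8 CPM on day 6, and in mature root it had no count in either library of day 2 and 0.893 and 5.13 CPM on day 6. Tip and mature root values were apart on day 2 and overlapped on day 6. Its 53 tip counts of day 2 against 0 make it at least 21.2-fold higher in tip that day, against a floor of 3 counts over the mature root group (edgeR adjusted p = 0.0324 on day 2 and 0.00713 over both days). LOC_Os01g18970 was at 18.0, 2.2 and 4.28 CPM in tip on day 2 and 4.62, 18.0 and 26.9 CPM on day 6, against 0 and 0.484 CPM, then 1.34 and 9.71 CPM, in mature root. The tissues overlapped for LOC_Os01g18970, and its call (edgeR adjusted p = 0.0452) was lost with library totals as scaling (adjusted p 0.0549) and without any 1 of 8 libraries, the 4 of mature root among them (0.0522 to 0.181). A further member without overlap, LOC_Os04g01550, had means of 12.9 ± 14.4 CPM (SD, n = 6) in tip and 2.86 ± 1.27 CPM (SD, n = 4) in mature root but did not pass (edgeR adjusted p = 0.0763); it was chosen for mention after its values were seen.

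The member with the smallest p for mature root was LOC_Os08g02110. It was at 42.2, 31.5 and 32.6 CPM in tip on day 2 and 41.6, 60.6 and 48.5 CPM on day 6. In mature root it was at 228 and 560.5 CPM on day 2 and 999 and 663 CPM on day 6. The lowest mature root library was thus well above the highest tip library. The mean was 42.8 ± 10.8 CPM (SD, n = 6) in tip and 613 ± 317 CPM (SD, n = 4) in mature root, 14.3-fold apart. Its log2 fold change of tip over mature root was -3.76 ± 0.34 (SE), with edgeR adjusted p = 0.000116. It was called on day 2 alone (edgeR adjusted p = 0.00759) and on day 6 alone (edgeR adjusted p = 0.00297).

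LOC_Os03g13210-ext, with 385 counts in tip and 3206 in mature root, came next in counts among members lower in every tip library. Tip libraries held 34.1, 30.0 and 16.6 CPM on day 2 and 68.5, 36.7 and 41.3 CPM on day 6, and mature root libraries 129.5 and 114 CPM on day 2 and 313 and 502 CPM on day 6. Within both tissues its day 6 libraries were all above its day 2 libraries. The log2 fold change of tip over mature root was -2.62 ± 0.36 (SE), with edgeR adjusted p = 0.00101. LOC_Os03g55410 behaved likewise at a lower level, with 2.69, 0 and 5.35 CPM in tip on day 2 and 20.0, 17.2 and 7.18 CPM on day 6, against 30.8 and 44.5 CPM, then 95.1 and 106.6 CPM, in mature root. Its groups did not overlap between days in either tissue, and its tissue difference was -3.25 ± 0.58 on the log2 scale (SE; edgeR adjusted p = 0.00442).

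A group of members was close to absent from the tip. LOC_Os06g16350 had 6 counts in all tip libraries together, with 0, 0 and 1.07 CPM on day 2 and 0, 1.56 and 0 CPM on day 6, and 244 counts in mature root, with 20.3 and 37.3 CPM on day 2 and 19.7 and 15.9 CPM on day 6. On day 2 its 141 mature root counts against 2 tip counts gave a ratio of 58.8 with an exact 95% counting interval of 16 to 490.0, and it was called that day (edgeR adjusted p = 0.0352) and over both days (edgeR adjusted p = 0.0017). LOC_Os04g55740-ext was at 0, 1.47 and 3.21 CPM, then 6.93, 3.13 and 0.898 CPM, in tip and at 66.4 and 15.5 CPM, then 66.5 and 160.2 CPM, in mature root. Both of these members kept the tissues fully apart, LOC_Os04g55740-ext with a log2 fold change of -4.78 ± 0.71 (SE; edgeR adjusted p = 0.0016). LOC_Os07g48060 had 5 counts in tip and 173 in mature root, where its libraries held 9.84 and 43.6 CPM on day 2 and 9.38 and 8.36 CPM on day 6. Its log2 fold change was -4.94 ± 0.97 (SE; edgeR adjusted p = 0.0072), and leaving out the high library, replicate 2 of day 2, gave -4.20 ± 1.11 (SE) with edgeR adjusted p = 0.0552.

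LOC_Os02g14430 was lower in every tip library but was not called (0 to 1.8 CPM in tip, 1.91 to 6.47 CPM in mature root, edgeR adjusted p = 0.071). LOC_Os01g07770, LOC_Os01g57730, LOC_Os07g02440 and LOC_Os04g51300 completed the called members that were lower in every tip library. LOC_Os01g07770 was at 0 to 9.88 CPM in the tip libraries, and at 21.3 and 49.4 CPM, then 68.3 and 54.0 CPM, in mature root (log2 fold change -3.66 ± 0.73 SE, edgeR adjusted p = 0.00796). LOC_Os01g57730 was at 0 to 7.7 CPM in tip, and at 37.1 and 22.3 CPM, then 53.6 and 83.1 CPM, in mature root (log2 fold change -3.22 ± 0.64 SE, edgeR adjusted p = 0.00734). LOC_Os07g02440 was at 4.69 to 11.7 CPM in tip, and at 26.4 to 50 CPM in mature root (log2 fold change -2.41 ± 0.40 SE, edgeR adjusted p = 0.0033). These 3 were called under each setting tried. LOC_Os04g51300 was uneven between mature root replicates, with 19.7 and 116 CPM on day 2 and 151 and 18.3 CPM on day 6, against 6.29 to 18.2 CPM in tip. Its log2 fold change of -2.77 ± 0.61 (SE; edgeR adjusted p = 0.0131) fell short of the threshold when mature root day 2 replicate 2 (-1.88, adjusted p 0.0997) or day 6 replicate 1 (-1.69, adjusted p 0.127) was left out.

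The other 9 members called lower in tip overlapped between tissues. In 8 of them both mature root libraries of day 2 lay below both of day 6, which 22.0% of all tested rows did. The calls that chose the 9 used the same libraries. The 9 members were LOC_Os10g02070, LOC_Os05g04380-ext, LOC_Os03g25330, LOC_Os05g06970-ext, LOC_Os01g73200-ext, LOC_Os05g04490, LOC_Os06g32990, LOC_Os07g49360 and LOC_Os03g22020. Each of these 9 calls was lost when some mature root library was left out, with adjusted p between 0.053 and 0.294. Mature root libraries held LOC_Os10g02070 at 182 and 371 CPM on day 2 and at 672 and 650.2 CPM on day 6, against 64.5 to 253.5 CPM in tip. The widest gap was that of LOC_Os01g73200-ext, which had 9 counts in tip and 1726 in mature root. Its mature root libraries stood at 29.5 and 0.968 CPM on day 2 and at 317 and 249 CPM on day 6, and the fitted log2 fold change went from -6.04 ± 1.01 (SE; edgeR adjusted p = 0.00339) to -4.09 (adjusted p 0.0978) without mature root day 2 replicate 1.

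**Figure D3:**
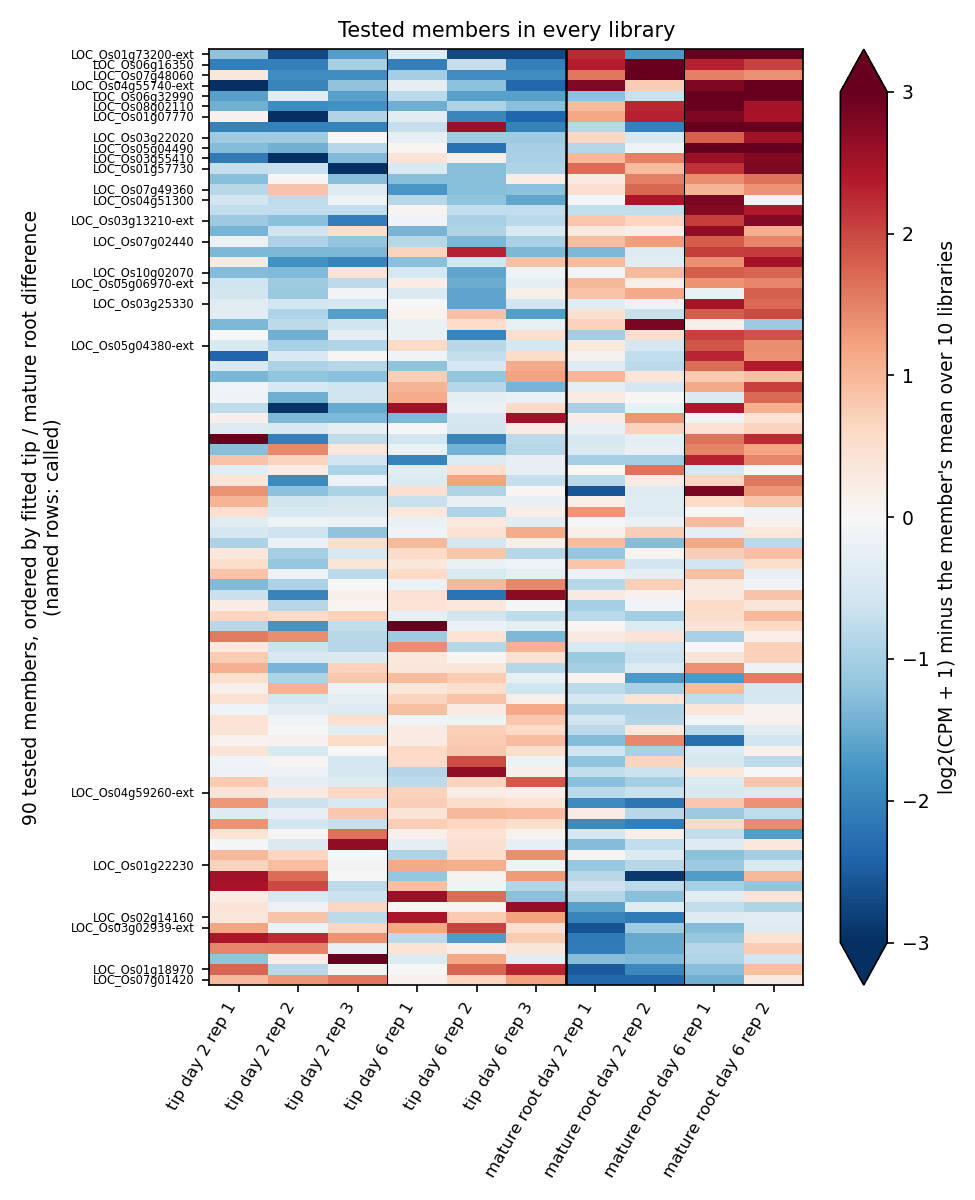
Expression of the 90 tested members in every library, as log2(CPM + 1) minus the member's mean over the 10 libraries, with members ordered by their fitted tip over mature root difference and the 25 called ones named. Red is above and blue below the member's own mean. Dark red lies in the 2 right-hand columns, mature root on day 6, and also in single libraries of other groups. LOC_Os11g02100 in tip library 3 of day 2 is 1 example.

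More members were called lower in tip on day 6 than on day 2. On day 2, 2 members were higher in tip (LOC_Os04g59260-ext and LOC_Os07g01420) and 2 lower (LOC_Os08g02110 and LOC_Os06g16350), 4.44% of members against 1.15% of all rows. Each direction held 2.22% of members, against 0.0832% of all rows higher and 1.07% lower. On day 6 none was higher, against 1.33% of all rows, and 18 or 20.0% were lower, against 5.75% of all rows (7.08% in either direction). Of the 19 members lower over both days, 16 were called on day 6 and 2 on day 2. LOC_Os12g02060-ext (edgeR adjusted p = 0.0499) and LOC_Os07g44590 (edgeR adjusted p = 0.0425) were called on day 6 and not over both days. The day 6 count was 8 and 9 without tip day 6 replicates 2 and 3, with 2.01% and 3.97% of all rows called. With any 1 mature root library left out, the day 6 count and the share of all rows were both lower. On day 2 the count was 1 without any 1 tip library of that day (0.22% to 0.335% of all rows). It was also lower with any 1 mature root library left out. The share of all rows was then lower too, except without mature root day 2 replicate 1.

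Whether the tissue difference itself changed between days was tested as an interaction, and no member was called by edgeR (0.0% of all rows, smallest member adjusted p = 0.513). At an unadjusted p under 0.05 there were 17 of 90 members, 3 of them with a more positive tip difference on day 6, against 9.47% of all rows. DESeq2 called 3 members (0.489% of all rows) and 6 (1.65%) were called by edgeR when rows with few counts were kept. The 3 smallest p-values belonged to LOC_Os07g44590, LOC_Os03g25320-ext and LOC_Os06g32990, which are the members DESeq2 called. LOC_Os03g25320-ext was at 20.7, 19.8 and 21.4 CPM in tip on day 2 and 10.8, 8.6 and 7.18 CPM on day 6, while mature root went from 6.99 and 5.81 CPM to 19.2 and 26.2 CPM. Its days did not overlap in either tissue, in opposite directions. LOC_Os07g44590 was at 3.74 to 11.7 CPM, then 0.77 to 4.94 CPM, in tip and at 2.54 and 2.42 CPM, then 33.9 and 18.6 CPM, in mature root.

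The other 5 of the 6 members with the highest mean CPM were not called between tissues. LOC_Os07g47990-ext was at 396 to 778 CPM in tip, against 240.1 to 483 CPM in mature root (log2 fold change 0.62 ± 0.29 SE, edgeR adjusted p = 0.177). LOC_Os01g15830 was at 312 to 757.5 CPM in tip, against 219.7 to 480.5 CPM in mature root (0.77 ± 0.27 SE on the log2 scale, edgeR adjusted p = 0.0861). LOC_Os01g19020-ext was at 284 to 829 CPM and 199 to 488 CPM (log2 fold change 0.60 ± 0.26 SE, edgeR adjusted p = 0.157). In all 3 the tip mean was the higher one, by 1.49-fold to 1.7-fold, and the ranges overlapped. LOC_Os04g34630, a gene model of 1 exon, had means of 416 ± 192 CPM (SD, n = 6) in tip and 435 ± 197 CPM (SD, n = 4) in mature root. Its log2 fold change was -0.03 ± 0.38 (SE; edgeR adjusted p = 0.971). LOC_Os01g16450 had means of 338 ± 88.6 CPM (SD, n = 6) and 338.5 ± 139 CPM (SD, n = 4), with a log2 fold change of 0.06 ± 0.31 (SE; edgeR adjusted p = 0.915). For these 2 the sign changed with the library left out.

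Genes that supply or share the substrates of peroxidases are read here against the 9.02% of all rows that were lower in tip and the 3.18% that were higher, and the lists were not tested. Of 17 tested genes of monolignol synthesis, which makes the phenolic precursors of lignin, 6 were lower in tip and none higher, with a median log2 fold change of -1.07. Of 19 laccases, copper enzymes that also oxidise monolignols, 5 were lower and none higher (median -1.74), and LOC_Os11g42200 stood at 0.975 ± 1.64 CPM (SD, n = 6) in tip and 22.1 ± 15.8 CPM (SD, n = 4) in mature root. The phenylalanine ammonia-lyase LOC_Os05g35290, the entry enzyme of the pathway, was at 22.5 ± 10.8 CPM (SD, n = 6) in tip and 256 ± 264 CPM (SD, n = 4) in mature root (log2 fold change -2.77 ± 0.44 SE, edgeR adjusted p = 0.00243). Dirigent proteins, which steer the coupling of phenolic radicals, had 1 member higher and 1 lower of 21 (median -0.57).

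Sources and consumers of hydrogen peroxide are given against the same 9.02% of rows lower and 3.18% higher. The germin-like list held germin-like proteins, oxalate oxidases and any other row described by a cupin domain. Some of these proteins release hydrogen peroxide in the wall. The list had 9 of 17 lower in tip and none higher (median log2 fold change -1.98). Amine oxidases had 3 of 15 lower (median -0.98), and NADPH oxidases, which make superoxide at the plasma membrane, 1 of 6. The median of the NADPH oxidases was 0.06, with 4 of the 6 fitted above 0. The NADPH oxidase called lower, LOC_Os11g33120, was at 16 ± 10.1 CPM (SD, n = 6) in tip and 154 ± 44.5 CPM (SD, n = 4) in mature root (log2 fold change -3.27 ± 0.48 SE, edgeR adjusted p = 0.00157). Superoxide dismutases had 1 of 7 lower (median -0.11), catalases 1 of 3 (-1.59) and ascorbate peroxidases 1 of 7 (0.03). Glutathione peroxidases and peroxiredoxins had 0 of 11 (-0.28), and none of these lists had a member higher. Between days edgeR called no row of the whole table in either tissue (0.0%), and so none of these 10 lists. Median log2 fold changes of day 6 over day 2 in mature root were compared with -0.03 over all rows. They were 1.06 for the germin-like list, 0.88 for monolignol synthesis, 0.81 for dirigent proteins and 0.8 for laccases. Ascorbate peroxidases had 0.46, amine oxidases 0.45, catalases 0.3, NADPH oxidases 0.19, glutathione peroxidases and peroxiredoxins -0.27, and superoxide dismutases -0.34.

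In mature root most members were higher on day 6 than on day 2, although no single one passed the test. Of 90 tested members, 71 had a fitted log2 fold change of day 6 over day 2 above 0 in mature root, with a median of 1.04 against -0.03 over all rows. The germin-like, monolignol, dirigent and laccase lists above also had medians above that of all rows, so such a shift was not particular to peroxidases. Both mature root libraries of day 6 exceeded both of day 2 in 58 members, 64.4% against 22.0% of all tested rows, and the reverse held in 8, or 8.89% against 20.8%. Over all 130 members, tested or not, the count was 75, 57.7% against 18.5% of the whole table. Among members with a mean of at least 10 CPM it was 47 of 68, 69.1% against 21.0%, and with library totals in place of TMM 52 of 90, 57.8% against 18.7%. These counts were chosen after the values were seen, and members that share a locus run or reads are not independent of each other.

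**Figure D4:**
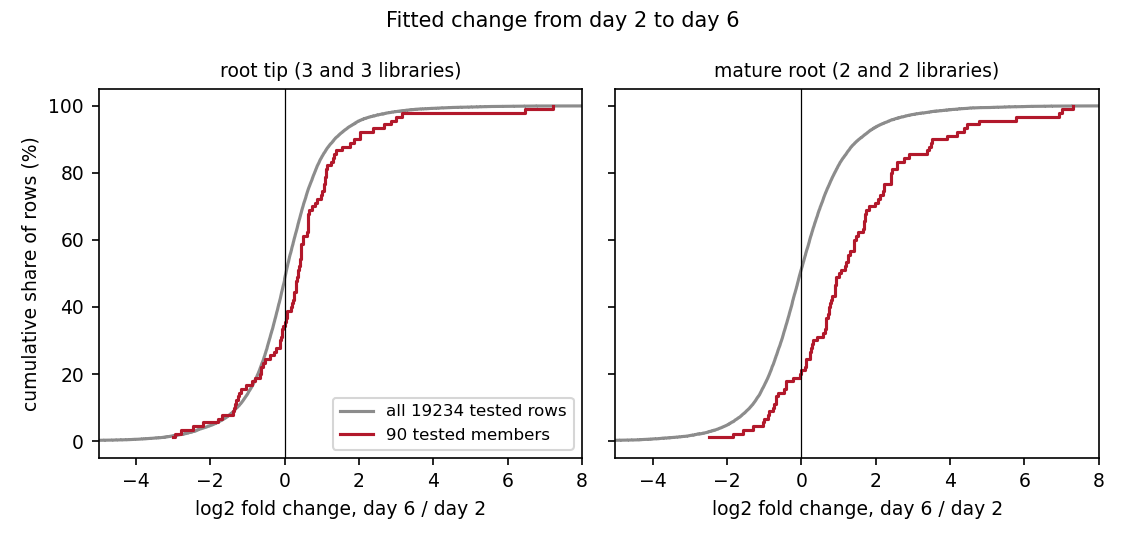
Cumulative share, in percent, of tested rows up to a given fitted log2 fold change of day 6 over day 2, in tip on the left and mature root on the right, for 90 members (red) and all 19234 tested rows (grey). The red line lies to the right of the grey one in mature root, with medians of 1.04 and -0.03, and closer to it in tip, with medians of 0.36 and 0.03.

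By edgeR no row of the whole table was called between days in mature root (0.0%), and the smallest adjusted p of a member was 0.245. At an unadjusted p under 0.05 there were 28 members, 26 of them higher on day 6, against 10.8% of all rows. DESeq2 called 7 members (1.95% of all rows), all 7 higher (1.35% of all rows), and edgeR called 13 (2.2%) when rows with few counts were kept. Fitted values were at least 4-fold higher on day 6 in 26 members (28.9%, against 6.39% of all rows) and at least 4-fold lower in 1 (1.11%, against 4.77%). The root cap genes of the marker list were also higher on day 6, from 6.67 and 14.5 CPM to 46.9 and 95.5 CPM in mature root, and their part in the result was not tested. Sums of the barrier, green-tissue and dividing-cell genes overlapped between the days there.

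The 4 smallest p-values for higher values on day 6 in mature root belonged to LOC_Os06g32990, LOC_Os05g04490, LOC_Os03g25300 and LOC_Os03g25280. LOC_Os06g32990 was at 0.318 and 0.968 CPM on day 2 and at 95.6 and 74.2 CPM on day 6, and 4 of 6 tip libraries had no count of it. Its 489 counts on day 6 against 3 on day 2 gave a ratio of 143 with an exact 95% counting interval of 48.6 to 696, which covers counting error only (edgeR adjusted p = 0.245, DESeq2 adjusted p = 2.62e-06). LOC_Os05g04490 was at 1.59 and 3.39 CPM on day 2 and 54.5 and 82.0 CPM on day 6 in mature root, and at 0 to 3.85 CPM in tip. For both members mature root on day 6 stood apart from the other 3 groups. The fitted log2 change of LOC_Os05g04490 was 4.78 ± 1.06 (SE), with edgeR adjusted p = 0.245 and DESeq2 adjusted p = 0.00062.

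LOC_Os03g25300 was at 3.18 and 2.42 CPM in mature root on day 2 and 25.9 and 39.1 CPM on day 6, and LOC_Os03g25280 at 2.86 and 2.42 CPM, then 20.5 and 37.8 CPM. In tip both were present on both days, between 8.02 and 36.8 CPM. The counts of these neighbouring members agree within sampling noise in every library (395 and 420 counts in all, chi-square p = 0.998), so they may share reads, and the labels and files do not state how the authors' counting split such reads. DESeq2 adjusted p was 0.00509 for LOC_Os03g25300 and 0.00998 for LOC_Os03g25280. The other members it called were LOC_Os03g25330, LOC_Os07g44590 and LOC_Os05g04440. LOC_Os03g25330 was at 47.6 and 55.2 CPM in mature root on day 2 and 347 and 204 CPM on day 6, while tip stayed at 19.9 to 60.8 CPM on both days.

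**Figure D5:**
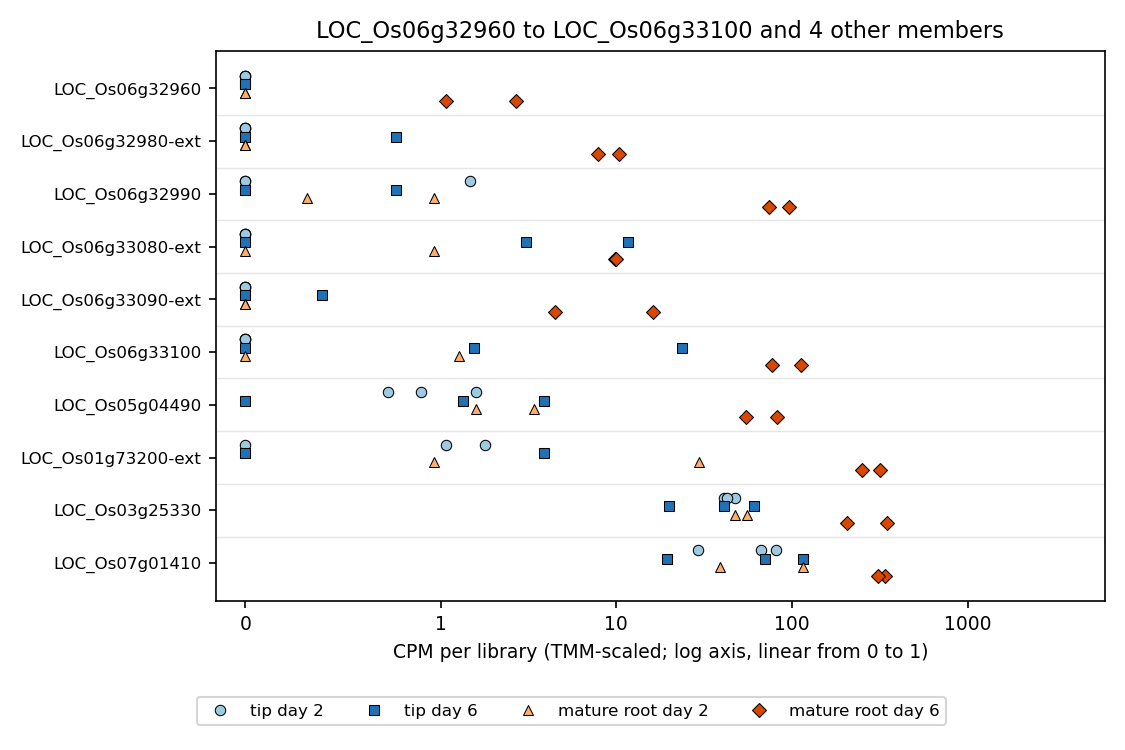
Expression in CPM, 1 point per library on an axis that is logarithmic above 1 and linear from 0 to 1, of the 6 neighbouring members LOC_Os06g32960 to LOC_Os06g33100 and of 4 others that were chosen after their values were seen. Red diamonds, mature root on day 6, lie above both mature root libraries of day 2 for all 10; for LOC_Os06g32990 they are at 95.6 and 74.2 CPM against 0.318 and 0.968 CPM.

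Some neighbouring members had similar values over the groups. Grouping members whose locus numbers lie within 100 of the next, a step chosen after the values were seen, gave 14 runs of at least 3 members that hold 62 members. The run from LOC_Os06g32960 to LOC_Os06g33100 on chromosome 6 has 6 members, 4 of them tested. Summed over the run, mature root held 1.59 and 1.94 CPM on day 2 and 199.6 to 222 CPM on day 6. Tip libraries held 0 to 1.47 CPM on day 2 and 0 to 35.6 CPM on day 6, so mature root on day 6 was well above all others. LOC_Os06g33100, the last of the run, was at 1.27 and 0 CPM in mature root on day 2 and at 76.8 and 113 CPM on day 6. In tip it had no count on day 2, and on day 6 its libraries held 1.54, 23.5 and 0 CPM, so 1 library supplied most of its 62 counts. Over both tissues its edgeR adjusted p was 0.277.

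The 14 runs were not alike. In 6 of them every tested member had both mature root libraries of day 6 above both of day 2, and in the other 8 that did not hold. The same order held in 64.4% of all tested members and 22.0% of all tested rows, and the runs were not tested against these shares. Mixed runs included that of LOC_Os01g22336-ext to LOC_Os01g22370-ext, with fitted log2 changes of -1.83 to 2.58 in mature root, that of LOC_Os06g35480 to LOC_Os06g35520, with -2.49 to 0.94, and that of LOC_Os07g47990-ext to LOC_Os07g48060, with -1.58 to 0.75; each had 1 of 3 tested members with day 6 above day 2. All 6 members from LOC_Os05g04380-ext to LOC_Os05g04500 had both day 6 libraries above both day 2 libraries, with fitted log2 changes of 0.67 to 4.78 and run sums of 339 to 409.6 CPM on day 2 and 1067.5 to 1350.1 CPM on day 6. The run from LOC_Os03g25280 to LOC_Os03g25370 did so in all 5 tested members, of which LOC_Os03g25280 and LOC_Os03g25300 may share reads. Its sums were 61.3 to 66.3 CPM on day 2 and 313 to 417 CPM on day 6. In the run from LOC_Os07g01370 to LOC_Os07g01420 the day 6 libraries were above in all 4 tested members. Of these, LOC_Os07g01420 was called higher in tip, as given above, and none was called lower. LOC_Os07g01410 had means of 63.6 ± 35.2 CPM (SD, n = 6) in tip and 200.4 ± 146 CPM (SD, n = 4) in mature root (log2 fold change -1.31 ± 0.50 SE, edgeR adjusted p = 0.104).

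Few members were lower in mature root on day 6, and none passed the test. LOC_Os06g35480 had the smallest p in that direction, with 55.2 and 246 CPM on day 2 and 38.4 and 15.4 CPM on day 6 (log2 change -2.49 ± 0.78 SE, edgeR adjusted p = 0.305). In tip the same member had the opposite order, from 12.6, 19.1 and 21.9 CPM to 29.2, 50 and 28.7 CPM, and the days did not overlap in either tissue. LOC_Os03g36560 was at 180.3 and 295 CPM, then 155 and 80.4 CPM (log2 change -1.01 ± 0.57 SE, edgeR adjusted p = 0.572). LOC_Os01g22336-ext was at 91.1 and 617 CPM, then 46.4 and 151 CPM, so its days overlapped (edgeR adjusted p = 0.407), and LOC_Os04g39100-ext went from 40.0 and 120.5 CPM to 26.8 and 38.3 CPM (edgeR adjusted p = 0.541). Without mature root day 2 replicate 2 the fitted change of LOC_Os01g22336-ext was 0.15 in place of -1.83.

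In tip 59 of 90 members had a fitted log2 change of day 6 over day 2 above 0, with a median of 0.36 against 0.03 over all rows. The dividing-cell genes of the marker list summed to 15343 to 16339 CPM in tip on day 6 and 9595 to 14198 CPM on day 2, without overlap, and their part in the result was not tested. All 3 tip libraries of day 6 exceeded all 3 of day 2 in 8 members (8.89%, against 5.9% of all tested rows) and were below in 4 (4.44%, against 5.66%). By edgeR no row was called (0.0%), the smallest member adjusted p was 0.425, and 17 members had an unadjusted p under 0.05, 12 of them higher on day 6, against 10.7% of all rows. Fitted values were at least 4-fold higher on day 6 in 9 members (10%, against 4.53%) and at least 4-fold lower in 5 (5.56%, against 4.6%). DESeq2 called 1 member (0.676% of all rows) and edgeR called 9 (2.99%) when rows with few counts were kept.

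The member DESeq2 called in tip was LOC_Os07g44550. It was at 36.8, 7.33 and 21.4 CPM in tip on day 2 and at 369.5, 55.5 and 94.7 CPM on day 6, and mature root went from 31.4 and 54.7 CPM to 338 and 133 CPM. In both tissues all day 6 libraries were above all day 2 libraries, and in tip the first replicate of day 6 was far above the others. The fitted log2 change in tip was 2.99 ± 0.80 (SE; edgeR adjusted p = 0.425, DESeq2 adjusted p = 0.0237) and 1.79 without that library. Over both tissues it was 2.72 ± 0.62 (SE; edgeR adjusted p = 0.289, DESeq2 adjusted p = 0.00332).

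LOC_Os01g19020-ext kept the days apart in both tissues at high counts. It was at 347, 298 and 284 CPM in tip on day 2 and at 705, 452 and 829 CPM on day 6, and mature root went from 200.4 and 199 CPM to 488 and 409.8 CPM. No library of day 2 reached any of day 6 in either tissue. The fitted log2 change was 1.10 ± 0.33 (SE) in tip and 1.17 ± 0.41 (SE) in mature root, and 1.13 ± 0.26 (SE) over both, where edgeR adjusted p was 0.289 and DESeq2 adjusted p was 0.0214. LOC_Os02g14160 had a log2 change over both tissues of 1.54 ± 0.40 (SE; edgeR adjusted p = 0.291, DESeq2 adjusted p = 0.0447), with values given above. Its days overlapped in tip, where 353 CPM on day 6 lay under 373 CPM on day 2.

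LOC_Os05g04410 and LOC_Os07g48030 were uneven between the tip replicates of day 6. LOC_Os05g04410 was at 36.8, 18.3 and 40.1 CPM on day 2 and 589, 58.2 and 54.8 CPM on day 6, and its log2 change of 2.87 ± 0.84 (SE; edgeR adjusted p = 0.425) was 0.83 without the first replicate of day 6. LOC_Os07g48030, a model of 16 exons, was at 41.3, 47.6 and 44.9 CPM on day 2 and 184, 47.3 and 255 CPM on day 6. For LOC_Os07g48030, 2 of the 3 libraries of day 6 were high and the other lay at the level of day 2 (log2 change 1.86 ± 0.56 SE, edgeR adjusted p = 0.425).

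Lower tip values on day 6 were led by LOC_Os10g39160. It was at 37.7, 32.2 and 17.1 CPM on day 2 and at 3.08, 1.17 and 11.2 CPM on day 6, without overlap (log2 change -2.46 ± 0.83 SE, edgeR adjusted p = 0.425). LOC_Os07g49360 had 11 counts on day 2 and 2 on day 6 in tip, a ratio of 7.7 with an exact 95% counting interval of 1.68 to 71.5 (edgeR adjusted p = 0.434). LOC_Os01g22352 and LOC_Os11g02100 completed the 4 smallest p-values in this direction, each through 1 library of day 2. LOC_Os01g22352 was at 57.5, 0.733 and 3.21 CPM on day 2 and at 0.782 to 3.85 CPM on day 6, and its log2 change went from -2.99 to 0.27 without the first replicate of day 2. LOC_Os11g02100 was at 2.69, 8.8 and 215 CPM on day 2 and at 5.39 to 18.0 CPM on day 6, and its change went from -2.93 to 0.77 without replicate 3 of day 2.

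Averaged over both tissues, 72 of 90 members were fitted above 0 on day 6, with a median of 0.76 against 0.01 over all rows. No row was called by edgeR (0.0%, smallest member adjusted p = 0.277), 32 members had an unadjusted p under 0.05, 31 of them higher, against 11.5% of all rows, and DESeq2 called 8 (1.39%), all 8 higher (0.925%). With rows of few counts kept, edgeR called 11 (2.64%). The only member fitted lower on day 6 with an unadjusted p under 0.05 was LOC_Os03g36560 (edgeR adjusted p = 0.424). LOC_Os10g41720 was at 59.3, 41.8 and 5.35 CPM, then 19.2, 8.99 and 4.94 CPM, in tip and 3.78 to 6.03 CPM in mature root (edgeR adjusted p = 0.513). For LOC_Os07g49360 and LOC_Os07g48060 the adjusted p over both tissues was 0.468 and 0.49.

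The day order in mature root can be set beside the tissue calls. Both day 6 libraries were above both day 2 libraries in 15 of the 19 members called lower in tip, in 4 of the 6 called higher and in 39 of the 65 not called, against 22.0% of all tested rows. They were below in 2 of the 19, none of the 6 and 6 of the 65, against 20.8% of all tested rows. The tissue calls used the same mature root libraries, so these counts are given side by side without a test.

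The 40 members without enough counts for the test were scarce in every group. Their totals over the 10 libraries had a median of 11 counts, 18 of them were under 10, and the highest was 71 for LOC_Os06g33090-ext. Together they had 66 counts in tip on day 2, 79 in tip on day 6, 84 in mature root on day 2 and 381 in mature root on day 6. A count was seen for 27, 20, 24 and 35 of them in those groups, and mature root on day 6 also had the deepest library. In 17 of the 40 both mature root libraries of day 6 were above both of day 2, against 13.8% of the rows not tested in the whole table, and in none below, against 8.37%. LOC_Os07g06175, LOC_Os07g06286 and LOC_Os07g06380 had identical counts, 4 in all each, and whether they share reads was not tested. Identical counts also occurred between chromosomes, for LOC_Os01g18910 and LOC_Os07g48050 with 3 each and for LOC_Os07g01380 and LOC_Os12g09460 with 1 each. Over all 130 members, those without any count numbered 16 in tip on day 2, 20 in tip on day 6, 18 in mature root on day 2 and 5 in mature root on day 6.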

How the data were processed

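Polyadenylated RNA was sequenced, and the authors deposited whole-number counts per gene in 10 libraries, as the file headers and values show, with no scaling. Bowtie, SAMtools 0.1.12a, TopHat 1.3.1 and Cufflinks 1.0.3 are named in the submitters' processing notes. Neither labels nor headers state the build, counting tool or use of strand, so antisense reads cannot be told apart. Other deposited columns give exon number and summed exon length. Per the labels' protocols, 18 cycles of PCR preceded sequencing; no molecular identifiers are mentioned, so intervals and floors cover counting error only.

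Counts were tested in R 4.3.3 with edgeR 4.0.16 (filterByExpr, minimum count 10 and total 15; TMM; quasi-likelihood fit with 1 mean per group over all 10 libraries), adjusted by Benjamini-Hochberg over 19234 rows. Steps were tested on simulated data. Standard errors are the fold change over the square root of F. P-values rest on pools that the labels call independent. Alternatives were DESeq2 1.42.0 (size factors or test), library totals, no filter or at least 5 CPM in 2 libraries, robust dispersion, only the groups compared, the replicate number as a block, and each library left out. A lone remaining mature root library is assumed to vary like other groups.

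Members and lists were chosen with earlier results of these data known. Named members are up to 10 called ones per direction with at least 10 CPM and no overlap between tissues (at least 4 by p), the 6 of highest CPM, for each day contrast the 4 with the smallest p per direction, and 3 for the interaction. Other named members were chosen after their values were seen.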

Additional observations from a re-analysis of the deposited data

How the results depend on the processing

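The tissue count over both days was 25 of 90 members (12.2% of all rows). Without the filter on low counts it was 40 of 130 (14 higher, 26 lower, 12.1% of all rows). DESeq2 called 35 (12 higher, 34.3% of calls against 24%, 18.6% of all rows). The count was 23 to 27 with 1 tip library left out (9.43% to 13.2% of all rows) and lower with any 1 mature root library left out. DESeq2 and the unfiltered test kept all 25. On day 2 the count of 4 (1.15% of all rows) became 7 with library totals (1.5%), 22 without the filter (5.18%) and 21 by DESeq2 (5.38%). It was 0 with only the groups compared (0.0237%) and 1 to 6 with 1 tip library left out (0.22% to 1.56%). With any 1 mature root library left out it was lower. On day 6 the 18 (7.08% of all rows) became 32 without the filter (8.9%) and 28 by DESeq2 (14.3%). The day 6 count was 8 to 22 with 1 tip library left out (2.01% to 7.21%) and lower than 18 with any 1 mature root library left out. Counts of 0 between days in tip became 9 without the filter (2.99% of all rows) and 1 by DESeq2 (0.676%). In the same order they became 13 (2.2%) and 7 (1.95%) in mature root and 11 (2.64%) and 8 (1.39%) over both tissues. For the interaction they became 6 (1.65%) and 3 (0.489%). Other settings left these counts at 0. The cause was not tested. The share of library counts in tip went from 1.06% to 0.694% without LOC_Os04g59260-ext. Same-numbered replicates deviated with correlations of -0.045 to 0.023, so no pairing by number was seen. With 2 or 3 libraries per group these correlations cannot show that there was none. With the replicate block the tissue count over both days was 19 (6.58% of all rows), 18 of them among the 25. It was 1 on day 2 (0.702%) and 9 on day 6 (3.01%), and 0 for each other contrast.

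Signs turned for members not called in the contrast concerned. LOC_Os04g34630, at -0.03 between tissues, was 0.14 with the replicate block and -0.31 to 0.29 with 1 library left out, and LOC_Os01g16450, at 0.06, was -0.14 to 0.33. Ranges with 1 library left out were -3.57 to 0.27 for LOC_Os01g22352 and -3.75 to 0.77 for LOC_Os11g02100 in tip over days, -2.91 to 0.15 for LOC_Os01g22336-ext in mature root and -2.91 to 0.25 for LOC_Os07g48060 over both tissues. The count of 58 members higher in both mature root libraries of day 6 was 52 with library totals, 58 with DESeq2 size factors and 61 to 67 with 1 mature root library left out, where 34.7% to 37.6% of all rows met the looser condition. Depth limits members under about 2.69 CPM, which is 3 counts in the smallest library.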

Other observations

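Some members were much higher in 1 tip library than in most other tip libraries. In 11 tested members 1 tip library reached at least 50 CPM and at least 5 times the median of the other 5 tip libraries. The rule was chosen after the values were seen and was not applied to other rows. It admits members with a second high library, such as LOC_Os07g48030 at 255 and 184 CPM on day 6. LOC_Os03g02920 was at 1006 CPM in tip library 3 of day 2 and at 116 to 221 CPM in the other tip libraries. The same library held LOC_Os11g02100 at 215 CPM, against 2.69 to 18.0 CPM elsewhere in tip. On day 6 tip library 1 held LOC_Os05g04410 at 589 CPM and LOC_Os07g44550 at 369.5 CPM, library 2 LOC_Os05g42000 at 154 CPM (12.3 to 26.0 CPM in the others) and library 3 LOC_Os10g02040 at 413 CPM (12.5 to 83.9 CPM in the others). The libraries concerned differed between members, and no test was made.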
